A study of Mus musculus with 4 samples.

Results

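Ion channel genes of the voltage-gated and potassium channel superfamily were described across the cells of 4 mouse medulloblastomas driven by Sonic hedgehog (SHH), tumours that arise from the precursors of cerebellar granule neurons. The set was chosen by gene symbol alone: symbols that begin with Kcn, a subfamily letter and a number, with Scn, a number and a or b, or with Cacna, Cacnb or Cacng, leaving out Kcnj10. This gave 134 of the 33219 symbols listed in the deposited tables. All 134 were listed for tumour 1, and 79, 69 and 83 were listed for tumours 2, 3 and 4, whose tables held only genes seen in at least 5 cells. All tables together shared 65 of them, and 22, listed for tumour 1 alone, had no UMI (a count of 1 captured transcript molecule) there. A gene missing from the tables of tumours 2 to 4 can still have had UMIs in up to 4 cells of each. The tumours formed 1 untreated group from Ptch1+/- mice that had been irradiated at birth and were studied at end point. Each was run as 1 single-cell RNA library, so classes of cells were compared within tumours, and p-values measured only the spread between these 4 samples.

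Voltage-gated sodium and calcium channels are built from a large pore-forming alpha subunit with smaller auxiliary subunits, and open when the membrane depolarises. Potassium channels form the most varied group: voltage-gated channels repolarise the cell, tandem-pore channels carry a background current, inward rectifiers hold the resting potential, and a further group opens with intracellular calcium or sodium. Granule neurons acquire these currents as they leave the cell cycle, glia rely on potassium conductance to clear extracellular potassium, and microglia and lymphocytes use potassium efflux to drive their responses.

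The 4 tables held 798, 2589, 1229 and 1893 cells with 10458431 to 23439893 UMIs each, and tumour 1 was the deepest, with a median of 15284 UMIs per cell against 6799 to 7825. Libraries shared between 0 and 7 cell barcodes per pair. Cells were clustered without the channel genes of the set and named from marker lists, so each name is "-like". Kcnj10, left out of the set, was among the genes used for clustering. Progenitor-like cells numbered 309, 1708, 707 and 410 in tumours 1 to 4, and neuron-like cells 40, 469, 128 and 71. Myeloid-like cells numbered 54, 94, 11 and 462. Astrocyte-like cells (13, 9, 18 and 27) and oligodendrocyte lineage-like cells (1, 17, 41 and 58) were few, and T and NK cell-like cells (2, 10, 2 and 162) and neutrophil-like cells (0, 1, 0 and 385) came mostly from tumour 4. A skeletal muscle-like class, 67 cells of tumour 1, is not described further. Clusters that met no naming threshold stayed unnamed and held 311, 278, 317 and 306 cells. Levels are UMIs of a gene summed over a class of 1 tumour, per 1000000 UMIs of that class (CPM), given where a class had at least 10 cells. A difference is on the log2(CPM + 10) scale, which understates changes of low genes.

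Summed over the 65 genes listed in every table, channel transcripts were lowest in immune cells and highest in neuron-like and oligodendrocyte lineage-like cells. Progenitor-like cells held 599 ± 140 CPM (SD, n = 4) and neuron-like cells 1214 ± 232 (n = 4). In oligodendrocyte lineage-like cells the sum was 1641 ± 473 (n = 3), and in astrocyte-like cells 820 ± 128 (n = 3). Myeloid-like cells held 196 ± 41.4 CPM (n = 4), T and NK cell-like cells 119 and 195 in tumours 2 and 4, and neutrophil-like cells 101 in tumour 4. The lowest neuron-like value (1004) was above the highest progenitor-like value (790), and the highest myeloid-like value (251) was below the lowest progenitor-like value (453). No test was made on these sums.

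**Figure D1:**
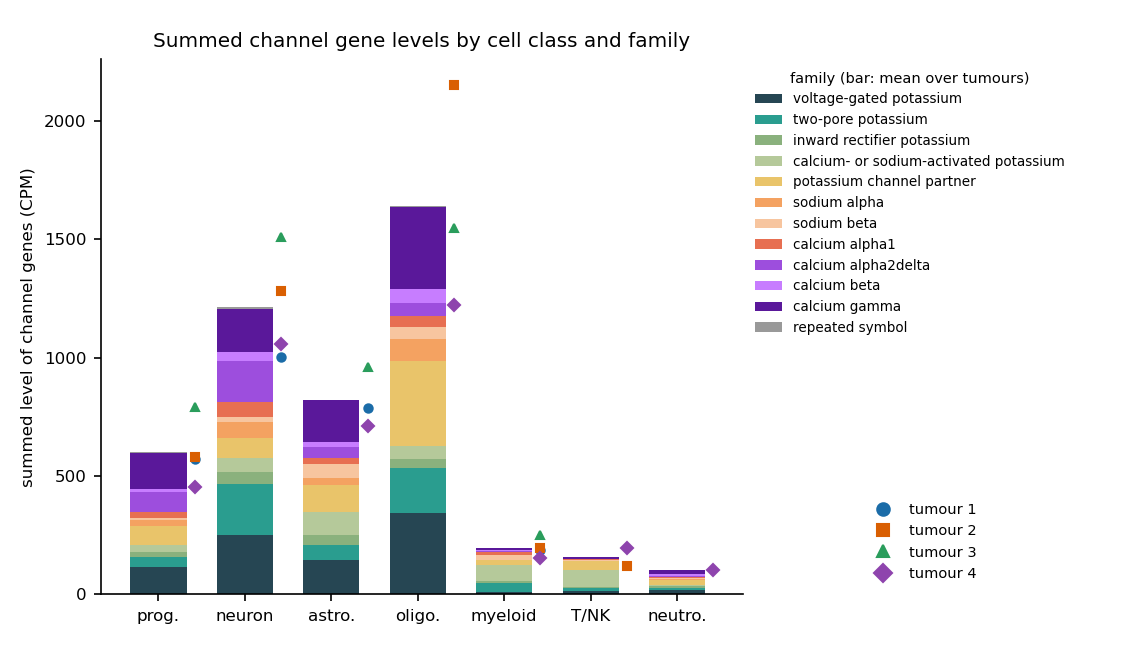
Summed level of the channel genes listed in all tables, in CPM, in progenitor, neuron, glial and immune cell classes. Bars stack the family means over the tumours with at least 10 cells of the class, and points give each tumour's sum; the neuron-like and oligodendrocyte lineage-like sums stand above the progenitor-like ones, and immune sums lie at 251 CPM or below.

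In whole tumours the highest level belonged to Cacng2 (chromosome 15, 77991919 to 78120220, GRCm38.p6), which encodes stargazin, an auxiliary subunit of AMPA receptors that is needed for their surface expression in granule neurons. It stood at 77.6, 128, 171 and 45.3 CPM in tumours 1 to 4. Cacna2d1 (chromosome 5, 15934264 to 16374511), the gabapentin-binding auxiliary subunit of calcium channels, followed at 95, 93.3, 124 and 33.9 CPM. Tumour 4 was the lowest for both, and it also held the most immune cells. Whether these were linked was not tested. Among the next were the tandem-pore gene Kcnk1 at 46.8 ± 27.1 CPM (SD, n = 4) and Kcnip3, a calcium-binding partner of A-type potassium channels, at 44.8 ± 17.1. Kcnc1, Scn8a, Kcne1l, Cacng7, Kcnh7, Kcnn4 and Cacna1a had means between 12.4 and 18.4 CPM. The order within that last group lay within the spread between tumours. Each UMI stands for 1 captured molecule, so levels were not divided by gene length.

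Several channels, among them some of mature neurons, had few or no UMIs in whole tumours. A low total does not mean a low level in every class: Kcnip1, described below for oligodendrocyte lineage-like cells, had 87 UMIs over all tumours. Kcna2, a channel of axons, had 1 UMI in the 798 cells of tumour 1, and Kcnk9, a tandem-pore channel abundant in mature granule neurons, had 0; neither was listed for the other tumours. Scn1a had 44 UMIs over all tumours, Kcnma1, the large-conductance calcium-activated channel, 85, Cacna1c 63 and Cacna1e 92. Kcnh2 had 123 UMIs. Kcna3 (19 UMIs) and Kcnip4 (25) were listed for 2 tumours, and Kcnj2 (33) and Kcnk3 (37) for 3. No fold change is given for these genes.

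Neuron-like cells, taken as a differentiating part of the tumour, were set against progenitor-like cells of the same tumour. Some unnamed clusters also had Neurod1 and Cntn2 among their leading genes and entered neither class. They held 110 and 54 cells in tumour 1, 64 in tumour 2, 145 in tumour 3 and 53 in tumour 4. Of the 33 channel genes whose mean was at least 5 CPM, 22 were higher and 1 was lower in neuron-like cells. Over all 9841 genes tested 47.3% were called (26.4% higher and 20.9% lower), and 43.1% (23.6% higher) of those that, like the channel genes, were neither markers nor used for clustering. The median difference was 0.61 for these channel genes and 0.043 for all genes. A gene can pass the filter through its high class alone, so the count describes only those that passed. With no filter 65 were tested and 36 called, 32 of them higher. Scaling by median of ratios gave the same 22 and 1, while the split over all genes moved from 2596 higher and 2060 lower to 2144 and 2591.

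Both tandem-pore genes that were tested rose. Kcnk1 (chromosome 8, 125993655 to 126030685), whose channel passes a weak background potassium current, stood at 29.7, 42.6, 54.1 and 14.2 CPM in progenitor-like cells of tumours 1 to 4. In neuron-like cells it stood at 99.5, 230, 289 and 141 CPM, a difference of 2.13 ± 0.15 (SE, adjusted p = 2.15e-07, limma). Every neuron-like value was above every progenitor-like one. Kcnk2, a mechanosensitive and lipid-sensitive channel, went from 3.23 ± 1.05 to 19.0 ± 9.62 CPM (difference 1.07 ± 0.16, adjusted p = 2.98e-05), and its groups did not overlap.

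Of 6 voltage-gated potassium genes tested, 4 rose. Kcnb2, a delayed rectifier, was at 2.18, 9.64, 10.5 and 4.94 CPM in progenitor-like cells and at 26.0, 38.5, 34.4 and 30.2 in neuron-like cells (difference 1.35 ± 0.13, adjusted p = 2.18e-07). A second row with the same symbol, separate in the tables, also rose (0.66 ± 0.14, adjusted p = 0.00116); how reads were divided between the rows is not known. Kcnc1, which allows fast firing, went from 16.6 ± 4.24 to 42.5 ± 15.1 CPM (0.95 ± 0.15, adjusted p = 7.13e-05). Kcnq3, a subunit of the M-current that damps repetitive firing, differed by -0.01 ± 0.12 (adjusted p = 0.96), and Kcnh7 by 0.17 ± 0.12 (adjusted p = 0.263).

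Among inward rectifiers, both tested members of the G-protein-gated group rose. Kcnj3 was at 1.51, 5.35, 9.89 and 5.84 CPM in progenitor-like cells and at 21.4, 20.5, 35.7 and 27.6 CPM in neuron-like cells (difference 1.22 ± 0.13, adjusted p = 7.48e-07). Kcnj6, which joins it in heteromeric channels, went from 2.81 ± 2.08 to 9.43 ± 2.12 CPM (0.61 ± 0.14, adjusted p = 0.0016). Kcnj12 stood at 9.02 ± 7.79 and 13.1 ± 6.97 CPM (adjusted p = 0.0564). Of the calcium-activated group, Kcnn1 (0.73 ± 0.17, adjusted p = 0.0031) and Kcnmb4, a beta subunit of the large-conductance channel (0.76 ± 0.13, adjusted p = 0.000151), rose. Kcnn1 was at 0 CPM in neuron-like cells of tumour 4, and without the block for tumour its adjusted p was 0.0904. Kcnn2 and Kcnn4 did not pass, and neither did any of the 3 potassium channel partners tested, Kcnip3, Kcne1l and Kcnab1.

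All 3 sodium channel alpha subunits that were tested rose, and so did the beta subunit Scn3b (0.59 ± 0.14, adjusted p = 0.00194). Scn3a, the alpha subunit best known from the embryonic brain, was at 2.01, 2.35, 6.14 and 5.17 CPM in progenitor-like cells and at 19.9, 11.7, 28.1 and 28.9 CPM in neuron-like cells (difference 1.18 ± 0.13, adjusted p = 1.75e-06). Scn8a, the main sodium channel of mature axon initial segments, went from 17.6 ± 2.41 to 31.4 ± 7.2 CPM (0.57 ± 0.13, adjusted p = 0.0019). Scn2a1, the alpha subunit of immature axons, was at 6.39 ± 1.5 and 14.5 ± 7.09 CPM (0.53 ± 0.17, adjusted p = 0.0145) and was lower in neuron-like cells of tumour 1. That call was lost in 7 alternatives, with adjusted p-values up to 0.271.

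Calcium channel genes rose in each kind of subunit. Cacna1b, the N-type alpha subunit of presynaptic terminals, was at 6.71, 8.46, 11.8 and 5.62 CPM in progenitor-like cells and at 29.1, 24.0, 37.0 and 19.7 in neuron-like cells (1.04 ± 0.13, adjusted p = 4.02e-06). Cacna1a, the P/Q-type alpha subunit, rose by 0.72 ± 0.14 (adjusted p = 0.000452), with overlapping groups. Cacna2d1 went from 86.4 ± 23.7 to 173 ± 36.8 CPM (0.94 ± 0.09, adjusted p = 4.33e-07). The beta subunits Cacnb1, Cacnb3 and Cacnb4, which carry alpha subunits to the membrane, rose by 0.61 ± 0.13, 0.74 ± 0.16 and 0.65 ± 0.12 (adjusted p = 0.000816, 0.000909 and 0.000339), and Cacnb1 missed the threshold in thinned cells (adjusted p = 0.0577).

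The gamma subunits, several of which serve AMPA receptors, went in both directions. Cacng2 was at 77.4, 118, 166 and 92.6 CPM in progenitor-like cells and at 118, 171, 179 and 137 CPM in neuron-like cells, a rise of 0.42 ± 0.09 (adjusted p = 0.00165). It rose in each tumour, but the groups overlapped, and without the block for tumour the adjusted p was 0.176. Cacng3 was the 1 channel gene that fell: it went from 7.05, 14.3, 18.0 and 8.77 CPM to 4.59, 3.54, 3.83 and 0 CPM (difference -0.75 ± 0.14, adjusted p = 0.000359). The neuron-like values of Cacng3 came from 3, 10, 3 and 0 UMIs. Cacng4 and Cacng7 did not pass (adjusted p = 0.614 and 0.786).

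**Figure D2:**
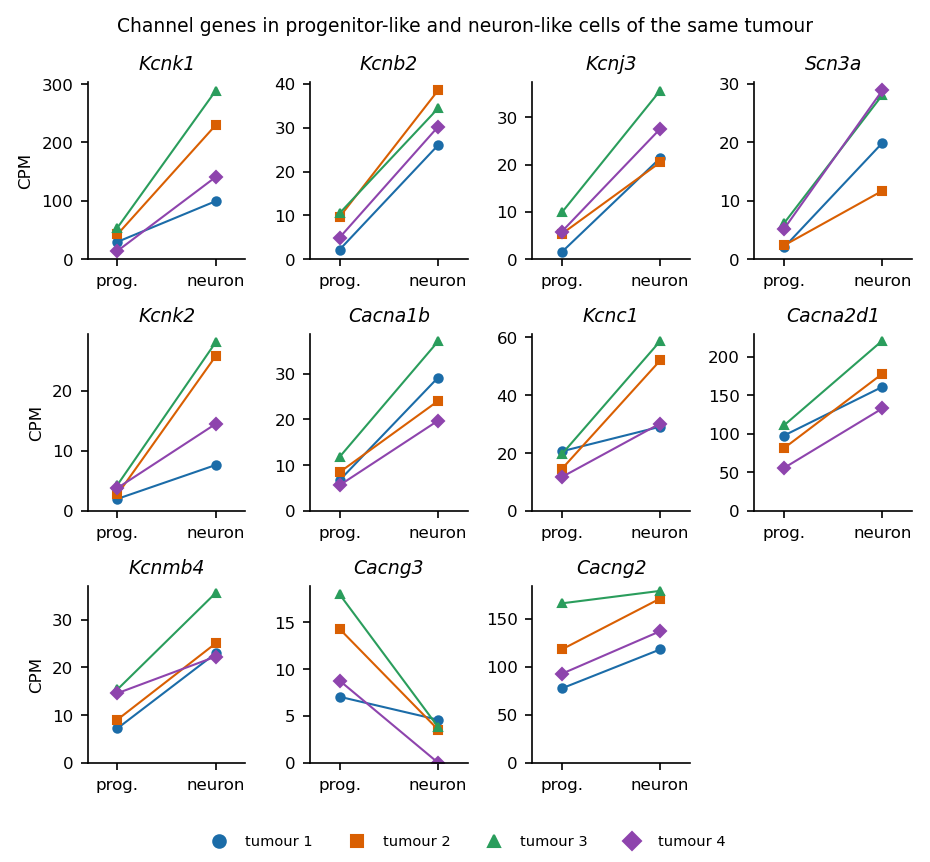
Level in CPM of 11 channel genes in progenitor-like (prog.) and neuron-like cells, with 1 line per tumour. Lines rise in every tumour for every gene but Cacng3, for which they fall.

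Of 31 other genes of neuronal excitability, on a list of scaffold, pump and accessory genes, 19 were tested; 10 were higher and 0 lower. That share (52.6%) is near the 47.3% called over all genes, and the median difference was 0.326 against 0.043. Ank3, which anchors sodium channels at the axon initial segment, went from 156 ± 33.9 to 391 ± 71.6 CPM (1.28 ± 0.09, adjusted p = 1.11e-08). Fgf13, a sodium channel binding protein, went from 18.0 ± 6.04 to 50.9 ± 21.3 CPM (1.06 ± 0.14, adjusted p = 1.12e-05). Granule progenitor markers were still present in neuron-like cells, at 1063 to 1956 CPM in sum against 1690 to 3794 in progenitor-like cells. Of 6 markers of inhibitory neurons, Gad1, Gad2, Pax2 and Slc32a1 had 0 UMIs in neuron-like cells of every tumour, and the list summed to 14 to 81.1 CPM. Neuron-like cells were shallower in tumours 2 and 3 (medians of 5567 and 4994 UMIs against 8771 and 7589), and 309 of 469 and 66 of 128 of them reached 4900 UMIs. With cells thinned to that depth and the 1258 shallower cells left out, 19 channel genes were higher and 1 lower.

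For oligodendrocyte lineage-like cells the comparison with progenitor-like cells held tumours 2, 3 and 4. Of 39 channel genes tested, 13 were higher and 0 lower, where 9.36% of 10384 genes were called (8.11% higher and 1.25% lower), and 5.87% (5.11% higher) of those outside the clustering and marker genes. The median difference was 0.81 for these channel genes and 0.058 for all genes. Here too a gene can pass the filter through its high class alone, so count and median describe only the genes that passed. Under median-of-ratios scaling the median over all genes moved to -0.104, and calls moved from 842 higher and 130 lower to 791 and 650 (13.9% called), while channel calls became 13 higher and 1 lower. Sodium channel, A-type potassium channel and tandem-pore genes were among those that rose.

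The largest difference was that of Cacng4 (chromosome 11, 107732357 to 107794706), a gamma subunit that serves AMPA receptors. It was at 4.00, 5.69 and 7.64 CPM in progenitor-like cells of tumours 2, 3 and 4, and at 344, 188 and 188 CPM in oligodendrocyte lineage-like cells. The difference was 3.93 ± 0.27 (adjusted p = 0.00145), and the groups were far apart. In neuron-like cells it stayed between 3.06 and 10.5 CPM, and in myeloid-like cells 1 UMI was counted in all. Cacng7 was higher in each of the 3 tumours, at 40.1 ± 19.3 against 16.2 ± 3.66 CPM with no overlap, but missed the threshold (0.88 ± 0.26, adjusted p = 0.0785) and passed it in 2 of 14 alternatives. Cacng3 was at 5.55 ± 6.07 against 13.7 ± 4.64 (adjusted p = 0.181).

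Of 9 voltage-gated potassium genes tested, 4 rose. Kcna1 (chromosome 6, 126636463 to 126645801), a low-threshold channel, was at 0.294, 1.05 and 0.45 CPM in progenitor-like cells, from 5, 7 and 2 UMIs. In oligodendrocyte lineage-like cells it was at 203, 96.3 and 54.3 CPM, from 23, 40 and 59 UMIs (difference 3.42 ± 0.34, adjusted p = 0.00213). No neuron-like value of Kcna1 exceeded 8.93 CPM. Kcnd2 and Kcnd3, which form A-type channels, rose from 2.93 ± 1.47 to 69.0 ± 6.62 CPM (2.61 ± 0.22, adjusted p = 0.00145) and from 1.81 ± 0.192 to 24.9 ± 8.99 CPM (1.54 ± 0.26, adjusted p = 0.0142). Kcnh8 rose from 0.791 ± 1.05 to 14 ± 5.72 CPM (1.12 ± 0.26, adjusted p = 0.0397) and lost its call in 5 of 13 alternatives, with adjusted p-values up to 0.267.

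The A-type channels are assembled with cytosolic calcium-binding partners, and 2 of these rose as well. Kcnip3 was at 40.2, 55.6 and 22.9 CPM in progenitor-like cells and at 521, 236 and 159 CPM in oligodendrocyte lineage-like cells (2.56 ± 0.28, adjusted p = 0.00309). Kcnip1 was at 0.764, 1.65 and 0.674 CPM and at 61.8, 36.1 and 14.7 CPM (1.98 ± 0.33, adjusted p = 0.0134); in neuron-like cells Kcnip1 had 0 UMIs in all 4 tumours. Dpp6, a membrane partner of the same channels from the list of accessory genes, went from 3.7 ± 1.78 to 46.4 ± 28.6 CPM (1.94 ± 0.32, adjusted p = 0.0129).

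Of 4 tandem-pore genes tested, Kcnk2 and Kcnk13 rose. Kcnk2 was at 2.76, 4.34 and 3.82 CPM in progenitor-like cells and at 97.1, 77 and 45.1 CPM in oligodendrocyte lineage-like cells (2.56 ± 0.27, adjusted p = 0.00259). Kcnk13 was at 0.176, 0 and 0.899 CPM and at 70.6, 28.9 and 12.9 CPM (2.01 ± 0.37, adjusted p = 0.02). The inward rectifier Kcnj16, which pairs with the glial channel Kcnj10, rose from 1.35 ± 0.651 to 24.5 ± 9.68 CPM (1.57 ± 0.27, adjusted p = 0.0144). Sodium channel Scn3a rose from 4.55 ± 1.97 to 40.7 ± 10.7 CPM (1.79 ± 0.27, adjusted p = 0.00965) and the calcium channel beta subunit Cacnb4 by 1.16 ± 0.24 (adjusted p = 0.0281). Cacnb4 lost its call in 4 of 13 alternatives.

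Cacng2 and Cacna2d1, the most abundant channel genes of progenitor-like cells, had the lowest differences here, and neither passed in the fit reported. Cacng2 was at 118, 166 and 92.6 CPM in progenitor-like and at 8.83, 69.8 and 80.1 CPM in oligodendrocyte lineage-like cells (-1.36 ± 0.43, adjusted p = 0.0946). Cacna2d1 was at 81.4, 111 and 55.7 and at 8.83, 91.5 and 52.5 CPM (-0.87 ± 0.41, adjusted p = 0.221). Tumour 2 stood apart in both, with 1 UMI of each gene in its 17 oligodendrocyte lineage-like cells. Cacng2 was called lower in 6 of 14 alternatives, with adjusted p-values from 2.02e-05 to 0.194 over all of them, and without tumour 2 its difference was -0.66 (adjusted p = 0.00235). Cacna2d1 was called lower in 1 of 14, with adjusted p-values from 0.00161 to 0.629.

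**Figure D3:**
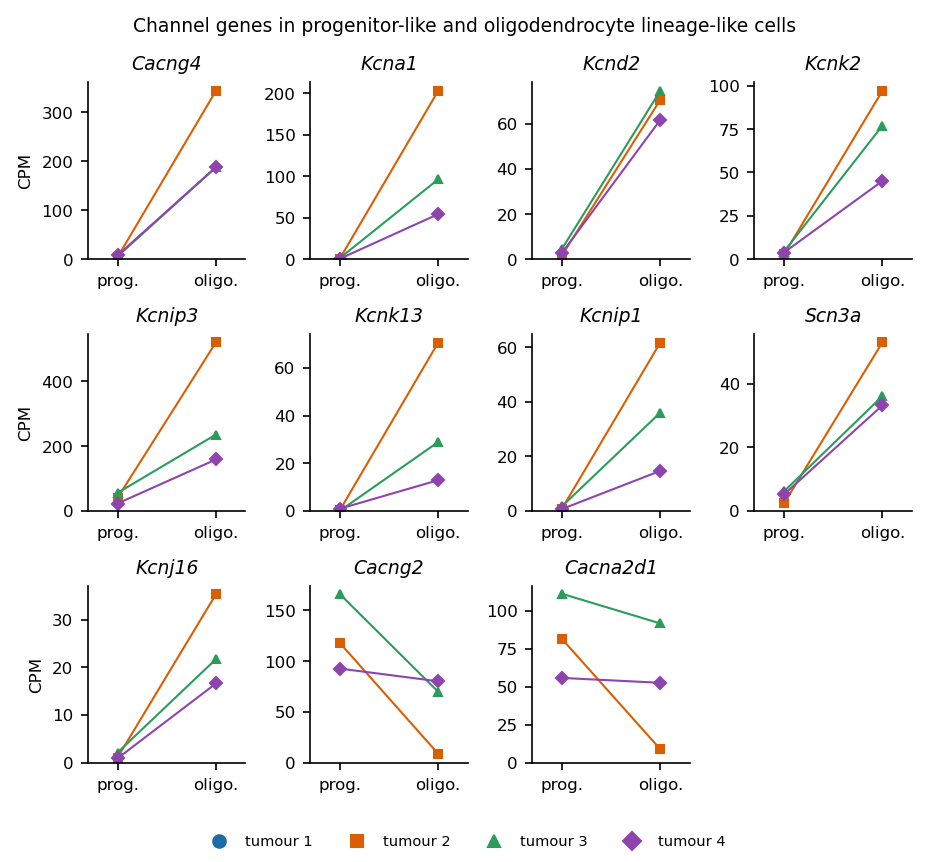
Level in CPM of 11 channel genes in progenitor-like (prog.) and oligodendrocyte lineage-like (oligo.) cells of tumours 2, 3 and 4; tumour 1 had too few cells and has no line. The first 9 genes rise in each tumour, and Cacng2 and Cacna2d1 are lowest in tumour 2.

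The class was not the same mixture in each tumour. Oligodendrocyte markers summed to 15711 CPM in tumour 2 and to 1630 and 711 in tumours 3 and 4, against 26.7 to 57.3 in progenitor-like cells, and precursor markers to 4422, 2981 and 1876 CPM; Mog was at 0 in each. Astrocyte markers summed to 1257 to 2577 CPM in the class, against 2072 to 5784 in astrocyte-like cells, and granule progenitor markers to 1209 to 2213 CPM. Their part in the results was not tested. Without tumour 2, 21 channel genes were called (19 higher and 2 lower, 13 of them shared with the 13 above), and without tumour 3, 7 were called, all higher; Kcnd3, Kcnj16 and Kcnk13 then had adjusted p-values of 0.0586, 0.059 and 0.0526.

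Promoters were searched for hexamers on both strands in the 250 bases before the first RefSeq start of each gene. CAGCTG, an E-box that reads the same on both strands, was found in 24.7% of 97 channel gene promoters and in 12.8% of all 27025 promoters. It was in 4 of the 9 promoters held for the 13 genes that rose in oligodendrocyte lineage-like cells. For channel genes higher in neuron-like, astrocyte-like and myeloid-like cells, it was in 4 of 15, 1 of 3 and 0 of 2 promoters. CAGATG was found in 2 of the 9 and in 14.5% of all promoters, and ACAAAG or ACAATG, cores of Sox sites, in 0 of the 9 and in 25.5%. Of the 13 genes, Kcnip3 and Kcnj16 are shown as those of largest difference that hold CAGCTG in a window outside the annotated gene. Hexamers are in capitals, 5′ to 3′ on the strand of the gene. The windows are chr2:127522095-127522344, minus strand, and chr11:110967783-110968032, plus strand, of GRCm38.p6.
Kcnip3: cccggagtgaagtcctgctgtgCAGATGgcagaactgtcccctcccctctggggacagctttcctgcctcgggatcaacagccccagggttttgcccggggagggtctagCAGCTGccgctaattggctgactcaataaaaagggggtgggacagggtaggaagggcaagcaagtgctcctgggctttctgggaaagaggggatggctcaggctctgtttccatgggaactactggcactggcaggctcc
Kcnj16: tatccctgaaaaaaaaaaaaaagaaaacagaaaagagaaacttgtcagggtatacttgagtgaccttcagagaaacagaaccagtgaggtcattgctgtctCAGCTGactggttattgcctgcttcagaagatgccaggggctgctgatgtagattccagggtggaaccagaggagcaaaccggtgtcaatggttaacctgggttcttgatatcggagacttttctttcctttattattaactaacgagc
The CAGCTG of Kcnip3 begins 140 bases before the start and that of Kcnj16 149 bases before it, and the promoter of Kcnip3 is richer in G and C (60% against 42.8%). A match is a description of the letters and not of binding.

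For astrocyte-like cells the comparison held tumours 1, 3 and 4. Of 30 channel genes tested, 6 were higher and 0 lower, where 5.41% of 10255 genes were called (3.98% higher and 1.43% lower), and 2.78% outside the clustering and marker genes. The median differences were 0.052 for these channel genes and -0.011 for all genes, again only for genes that passed the filter. The 6 higher genes were potassium channels and auxiliary subunits. This comparison rests on few cells: 2 genes were called when the block for tumour was dropped, and without tumour 3 there were 0, with 13 at an unadjusted p under 0.05 (limma).

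Cacng4 was at 4.87, 5.69 and 7.64 CPM in progenitor-like and at 17.3, 51.2 and 42.9 CPM in astrocyte-like cells of tumours 1, 3 and 4 (1.48 ± 0.29, adjusted p = 0.00713). Kcnj16 was at 0.839, 2.1 and 0.899 and at 14.9, 51.2 and 10.1 CPM (1.47 ± 0.32, adjusted p = 0.0153). Each of these groups stood clear of the other, although the astrocyte-like values of Kcnj16 came from 6, 8 and 4 UMIs.

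Kcnn2, a small-conductance calcium-activated channel, rose from 6.72 ± 3.14 to 41.3 ± 20.2 CPM (1.57 ± 0.27, adjusted p = 0.00344). Kcnmb4 rose from 12.4 ± 4.52 to 41.7 ± 13.2 CPM (1.19 ± 0.25, adjusted p = 0.0117), and Kcnk2 from 3.39 ± 1.22 to 34.8 ± 36.6 CPM (1.44 ± 0.35, adjusted p = 0.0271), with 76.9 CPM in tumour 3 and 9.91 and 17.7 in tumours 1 and 4. Kcnd2 had a difference of 1.1 ± 0.34 and did not pass (adjusted p = 0.0822). Of the accessory list, Atp1b2, a glial sodium pump beta subunit, rose by 2.94 ± 0.26 (adjusted p = 1.96e-05) and Ank2, an ankyrin that links membrane proteins to the cytoskeleton, by 1.96 ± 0.19 (adjusted p = 1.96e-05), among 5 higher and 0 lower of 20 tested (25.0%, against 5.41% of all genes).

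All 12 astrocyte markers had a UMI in each of these classes, and they summed to 2072, 5784 and 4608 CPM. In tumour 4 the class also held choroid plexus and ependymal markers at 17235 CPM, with 2 of its 27 cells over 1% of UMIs, and Kcnj13, a channel of choroid plexus epithelium, had 20 UMIs there and 0 in astrocyte-like cells of tumour 1. Without those 2 cells the same 6 genes were called. Kcne1l was at 83.3 CPM in that class and at 37.2 and 12.8 CPM in tumours 1 and 3 (adjusted p = 0.276).

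Myeloid-like cells, which hold microglia and macrophages, had little of the channel genes of progenitor-like cells and more of 3 others. Of 17 channel genes tested, 3 were higher and 12 lower, where 65.6% of 9695 genes were called (16.6% higher and 49.0% lower), and 61.6% (49.9% lower) outside the clustering and marker genes. The median difference was -1.28 for these channel genes and -0.51 for all genes. A gene can pass the filter through its progenitor-like level alone, so count and median describe only the genes that passed. Kcnmb4 and Kcnc1, for example, were at 0.053 and 0.106 CPM in myeloid-like cells against 11.6 and 16.6 in progenitor-like cells. The same limit holds for the accessory list below. Under median-of-ratios scaling the median over all genes was -0.261 and the split over all genes moved from 1609 higher and 4753 lower to 2008 and 3455, while the channel calls stayed at 3 and 12.

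Kcnn4 (chromosome 7, 24369826 to 24385212), the intermediate-conductance calcium-activated potassium channel of blood cells and microglia, was at 20, 4.35, 1.65 and 7.42 CPM in progenitor-like cells of tumours 1 to 4. It was at 71.1, 77.4, 75.2 and 59.6 CPM in myeloid-like cells (2.23 ± 0.26, adjusted p = 3.06e-05), with a clear gap between the groups. Tumour 1, with the highest progenitor-like level, had myeloid markers at 226 CPM in those cells, against 28.8 to 758 in the other tumours. Kcnk13 (chromosome 12, 99963149 to 100062682), a tandem-pore channel of resting microglia, was at 0.839, 0.176, 0 and 0.899 CPM and at 45.9, 25.8, 37.6 and 24.4 CPM (2.02 ± 0.22, adjusted p = 2.04e-05). Tumour 3 gave 6 UMIs of Kcnn4 and 3 of Kcnk13 from its 11 myeloid-like cells.

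The 12 genes that fell included the 5 with the highest level in whole tumours. Cacng2 was at 0, 17.7, 12.5 and 2.97 CPM in myeloid-like cells (difference -2.82 ± 0.21, adjusted p = 1.6e-06), and Cacna2d1 at 4.74, 4.84, 12.5 and 2.76 CPM (-2.57 ± 0.2, adjusted p = 1.75e-06). Kcnk1 fell by 1.86 ± 0.27 (adjusted p = 0.000142) and Kcnip3 by 1.82 ± 0.27 (adjusted p = 0.000168). Cacna1a did not pass (adjusted p = 0.0734). Granule progenitor markers summed to 65.9 to 197 CPM in myeloid-like cells, highest in tumour 2, where Cacng2 was also highest; the part of free RNA in these low levels was not tested.

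Of the accessory list, 14 genes were tested; 3 were higher and 10 lower, against 16.6% higher and 49.0% lower over all genes. Rest, which encodes a repressor of neuronal genes that include sodium channels, rose from 7.34 ± 3.03 to 28.8 ± 14 CPM (1.1 ± 0.23, adjusted p = 0.00179). Ank3 fell by 2.94 ± 0.21 (adjusted p = 9.54e-07).

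**Figure D4:**
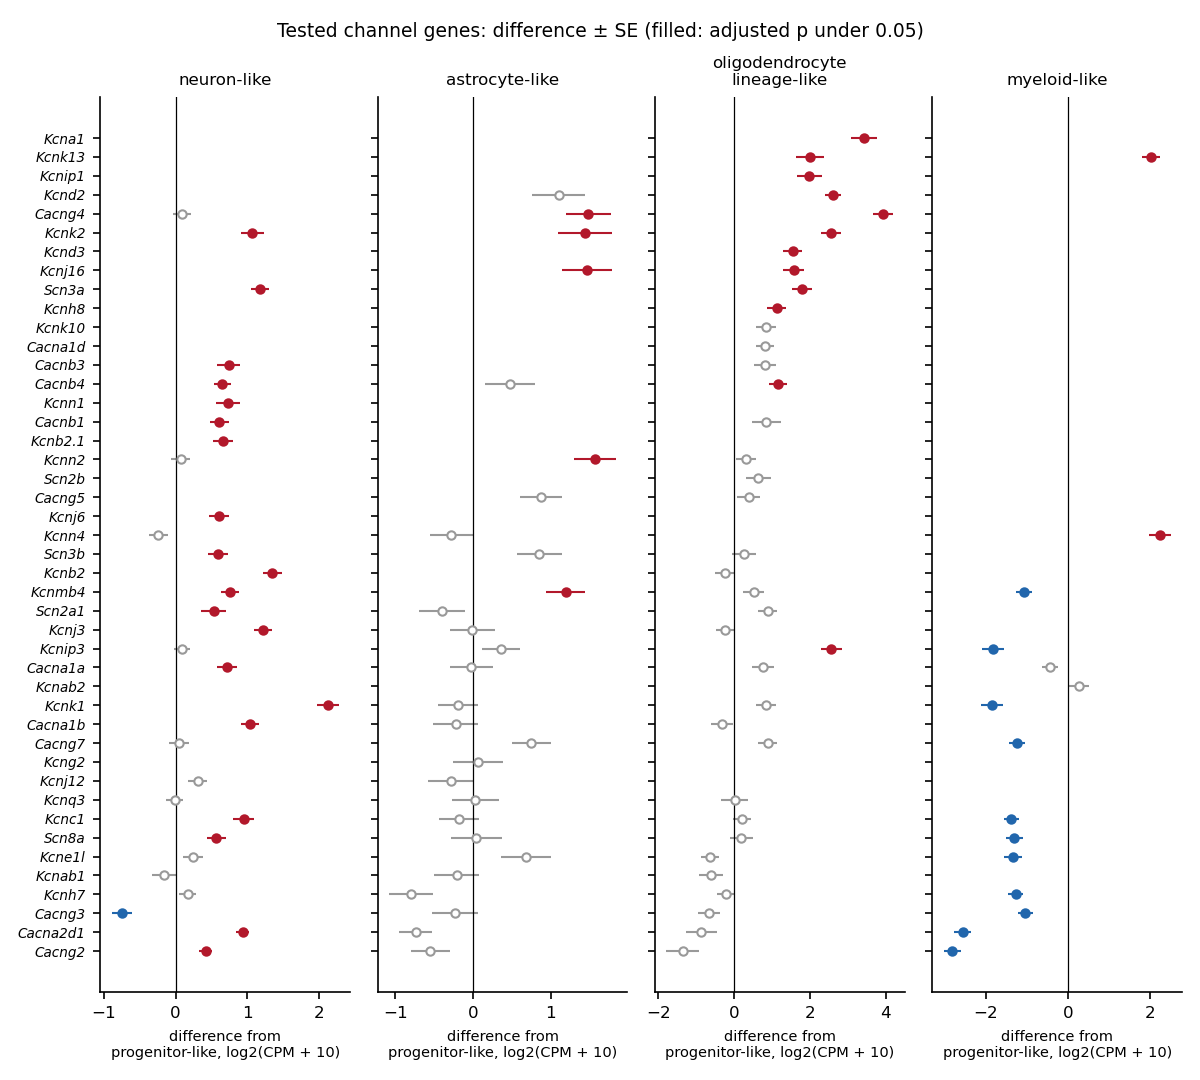
Difference from progenitor-like cells on the log2(CPM + 10) scale for tested channel genes in 4 cell classes, with bars of 1 SE. Filled points passed an adjusted p of 0.05 (red higher, blue lower) and open points did not; a gene with no point was not tested in that class, and the 4 comparisons share their progenitor-like cells.

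T and NK cell-like cells reached 10 cells in only 2 tumours and neutrophil-like cells in 1, so their levels are given without a test. Kcnn4 stood at 64.8 and 66.5 CPM in T and NK cell-like cells of tumours 2 and 4, close to the level in myeloid-like cells, and at 1.72 CPM (3 UMIs) in neutrophil-like cells of tumour 4. Kcnab2, a beta subunit of voltage-gated potassium channels, was at 10.8 and 56.5 CPM in T and NK cell-like cells, and Kcnk5, a tandem-pore channel that contributes to volume regulation, at 10.8 and 17.7 CPM; the tumour 2 values rest on 1 UMI each. Kcna3, the voltage-gated channel known from T cells, had 3 UMIs (3.33 CPM) in 162 such cells of tumour 4. In tumour 2 the 10 cells also held B cell markers at 1156 CPM, and Trac, Cd8a and Ncr1 were at 0 there.

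A further pair of genes, Cacna1f and Kcnk6, was found mainly in myeloid-like and neutrophil-like cells; the first was chosen after its values were seen. Cacna1f, an L-type alpha subunit best known from the retina, had 5, 7 and 50 UMIs in myeloid-like cells of tumours 1, 2 and 4 (7.91, 11.3 and 10.6 CPM) against 0, 0 and 1 UMI in progenitor-like cells. Kcnk6 had 6, 2 and 41 UMIs (9.49, 3.23 and 8.69 CPM) against 0, 0 and 1 UMI. Over all cells of these tumours Kcnk6 had 10, 5 and 81 UMIs, so some lay outside the myeloid-like, neutrophil-like and progenitor-like cells. Neither was listed for tumour 3, so neither was tested. In neutrophil-like cells of tumour 4 Kcnk6 was at 6.88 CPM and Cacna1f at 4.01, while Cacng2, at 12.6 CPM, was the highest channel gene there; granule progenitor markers summed to 187 CPM in the same cells.

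**Figure D5:**
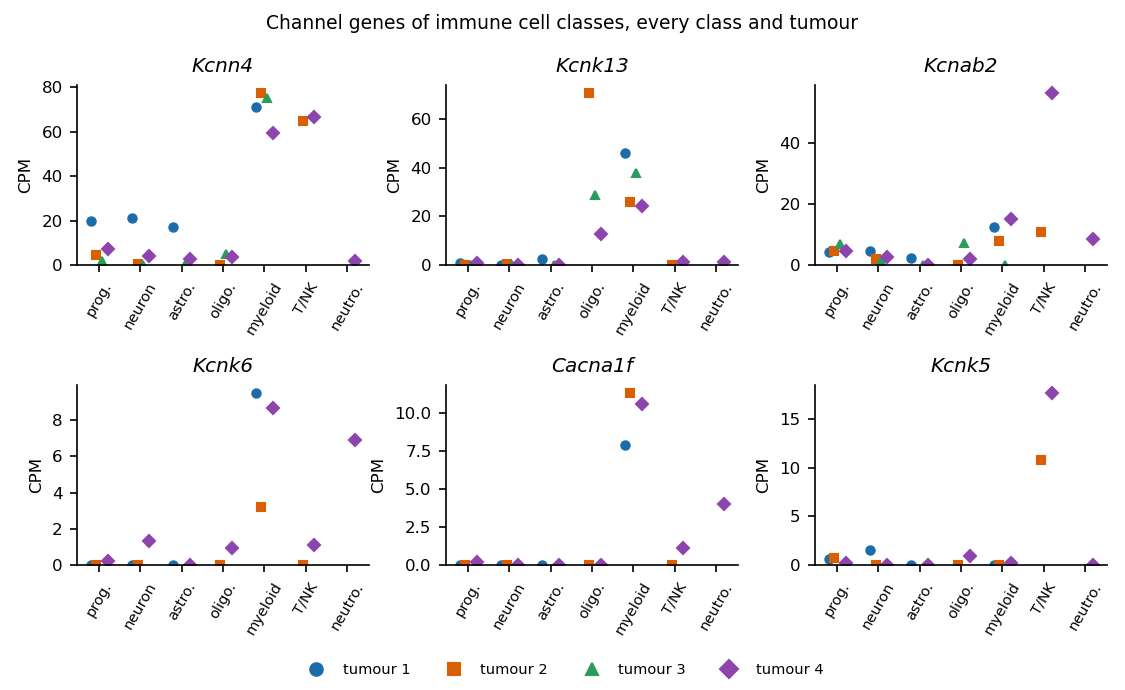
Level in CPM of 6 channel genes in progenitor, neuron, glial and immune cell classes, for each tumour with at least 10 cells in which the gene was listed. Kcnn4 is high in both T and NK cell-like and myeloid-like cells and low in neutrophil-like cells, and Kcnk13 is high in oligodendrocyte lineage-like and myeloid-like cells.

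Some genes were measured in several glial and neuronal classes, and their levels are set side by side as a description. Kcnk2 was at 3.23 ± 1.05 CPM in progenitor-like, 19.0 ± 9.62 in neuron-like, 34.8 ± 36.6 in astrocyte-like and 73.1 ± 26.2 in oligodendrocyte lineage-like cells; the neuron-like and astrocyte-like levels did not differ beyond their spread. Kcnk1 was at 190 ± 85.8 CPM in neuron-like, 69.5 ± 24.9 in oligodendrocyte lineage-like, 35.1 ± 17.2 in progenitor-like and 26.6 ± 16.0 CPM in astrocyte-like cells, the last pair within their spread. Scn3a was at 40.7 ± 10.7 CPM in oligodendrocyte lineage-like and 22.1 ± 8.07 in neuron-like cells. These means cover unlike sets: tumours 1 to 4 for progenitor-like and neuron-like cells, tumours 1, 3 and 4 for astrocyte-like cells. Those of oligodendrocyte lineage-like cells cover tumours 2, 3 and 4. Differences between the neuron-like and glial classes were not tested directly.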

How the data were processed

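Single-cell RNA was measured with the 10x Genomics platform in 4 libraries of live-sorted, viably frozen tumour cells, per the labels' protocols. The deposited values are log2 values, log2(UMI count / size factor + 1), a form read from the values. Cell Ranger, Seurat and mm10 are named in the submitters' processing notes; their versions and the source of the size factors are not given in the sources used here. Each value above 0 (100%) came out as a whole UMI count within 1e-06.

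The members and lists were chosen with earlier results of these data known. Scrublet (scanpy 1.11.5) called 21 doublets of 6509 cells against 99.5 expected, so doublets may remain. Cells were clustered (1000 variable genes without accessory genes and channel genes of the set, 30 principal components, 15 neighbours, leidenalg 0.10.2 at resolution 1), first together and then within the tumour lineage of each tumour. This scheme and the naming thresholds were set after the clusters, and before any gene test, had been seen.

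UMIs were summed per tumour and class. Genes listed in all tables that entered and with a mean of at least 5 CPM were tested on log2(CPM + 10) with limma 3.58.1 (R 4.3.3), with tumour as a block, trend and robust moderation, and Benjamini-Hochberg adjustment over all genes at 0.05. At least 10 cells in each class and 3 tumours were needed. The block holds because both classes came from the same tumour: deviations from class means correlated at 0.12 to 0.67 across genes. The test was also run on simulated sums with known changes, in which both classes of a tumour shared the same tumour effect. That setting is simpler than the data, and no conclusion is drawn from it.

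Named genes were, per comparison, up to 10 each way with the largest difference among those called and alike in every tumour, the 12 highest in whole tumours, and a list of known channels; a list of 31 accessory genes was described likewise. Members named outside this rule (Kcnab2, Kcnk5, Kcnj13 and Cacna1f among them) were chosen after their values were seen. RefSeq positions (GRCm38.p6, the assembly behind mm10) were found for 132 of 134 members. Of 48 named members looked up, 28 overlapped another annotated gene (5 a protein-coding one); how such reads were counted is not known. Some genes are not reported here by name; the counts of calls include them.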

Additional observations from a re-analysis of the deposited data

Results flagged for a closer look

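Among 68 sets of 4 tumour levels of named channel genes with at least 20 UMIs, 5 held a tumour whose gap to the nearest other, as a share of the range, passed Dixon's critical value (gaps of 0.839 to 0.964), where chance flags about 1 in 20. In progenitor-like cells Cacna1a was at 16.6 CPM in tumour 3 and between 8.09 and 8.4 CPM in the others. Kcnd3 was at 4.03 CPM in progenitor-like cells of tumour 1 and between 1.65 and 2.02 elsewhere. Kcnq3 was at 9.69 CPM in progenitor-like cells of tumour 2 and between 5.69 and 6.21 elsewhere. In neuron-like cells Kcne1l was at 52.0 CPM in tumour 1, against 14.5 to 20.5 in the others, and Kcnip3 at 22.3 CPM in tumour 4, against 50.5 to 53.6.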

How the results depend on the processing

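The number of channel genes called stayed within 1.5 times the main count except as follows. In neuron-like cells (23 called) it was 36 with no filter on low values and 6 with a mean of at least 20 CPM, which tested fewer genes; leaving out each tumour gave 22 to 24, and no replicate block gave 20. In oligodendrocyte lineage-like cells (13) it was 6 with at least 20 CPM and 20 with mean deposited log2 values, 7 to 21 leaving out each tumour, and 13 without the replicate block. In astrocyte-like cells (6) it was 2 with no replicate block and 0 to 7 leaving out each tumour. In myeloid-like cells (15) it was 47 with no filter and 5 with at least 20 CPM, 15 to 18 leaving out each tumour, and 14 without the replicate block. The cause of these shifts was not tested apart from the genes tested. No called channel or accessory gene changed sign in a setting in which it was tested. At least 20 cells per class could not be fitted for astrocyte-like and oligodendrocyte lineage-like cells, nor resolution 2 for astrocyte-like cells, and T and NK cell-like cells had too few tumours for any fit. Leaving out astrocyte-like cells with choroid plexus markers was chosen after seeing the data. A class of 10 to 60 cells gives few UMIs per gene, so genes of a few CPM could not be told apart there.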
